A study of Mus musculus with 9 samples.

Results

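The genes described here are 10 regulators of the G1 phase of the cell cycle: the D cyclins Ccnd1, Ccnd2 and Ccnd3, their kinase partners Cdk4 and Cdk6, the transcription factors Mycn and Myc, and the inhibitors Cdkn1b, Cdkn1c and Cdkn2c. They were taken by gene name, with no value in the rule, though the set was chosen with earlier results of these data known. All 10 were found in both deposited tables, out of 23852 genes present in either table. RNA of dissected cortex at postnatal day 0 was sequenced in 9 libraries, 3 in each of 3 groups. ShhN IUE mice had received ShhN, the secreted signalling fragment of Sonic hedgehog (SHH), by in utero electroporation, which reaches part of the cortical progenitors. SmoM2 mice carried hGFAP-Cre and SmoM2f/+, so that Cre driven by the human GFAP promoter, active in cortical radial glia and their descendants, switched on a constitutively active Smoothened, the receptor-side transducer of SHH. The wild-type mice were littermates. All groups shared a mixed background of C57BL/6J, 129S6 and CD1. No group was electroporated without ShhN, so effects of electroporation and of ShhN cannot be told apart. The stage of electroporation was not given in the sources used here.

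In G1, mitogens raise the D cyclins, which bind CDK4 or CDK6 and phosphorylate the retinoblastoma (RB) proteins. Phosphorylated RB proteins release E2F factors, which turn on the genes of DNA replication. INK4 inhibitors such as the product of Cdkn2c bind the kinases directly, while the CIP/KIP inhibitors encoded by Cdkn1b and Cdkn1c act on cyclin-kinase complexes and are high in cells that leave the cell cycle. In cerebellar granule neuron precursors, SHH is known to raise Mycn and the D cyclins, and Ccnd2 is a D cyclin of cortical intermediate progenitors.

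The libraries held 15376071 to 19604672 counts in ShhN IUE, 23625702 to 26923127 in SmoM2 and 18610507 to 21694348 in wild type. The SHH target Gli1 had 7.13, 7.55 and 19.5 FPKM in ShhN IUE and 13.1, 11.6 and 13.8 FPKM in SmoM2, against 1.48, 2.53 and 2.07 FPKM in wild type. Shh itself had 0.914, 1.09 and 10.4 FPKM in ShhN IUE, against 0.63, 1.0 and 0.585 FPKM in wild type, so ShhN IUE replicate 3 stood apart from the other two. FPKM is the authors' count per length and depth. Cortical markers were present in every library, with 7 markers summing to 1740 to 2320 counts per 1000000 (CPM) in ShhN IUE and 1680 to 2400 CPM in the wild type of that table. Of these 7, 1 fell in ShhN IUE (14.3%, near the 17.2% of all genes called lower). In SmoM2, 4 of the 7 cortical markers fell, with sums of 2210 to 2340 CPM in SmoM2 and 2260 to 2750 CPM in wild type. All 10 markers of dividing cells rose in both groups, summing to 436 to 527 CPM in ShhN IUE against 127 to 179 CPM in wild type, and to 357 to 517 CPM in SmoM2 against 126 to 176 CPM in wild type. Of 6 markers of oligodendrocyte precursors, 5 rose in each group, the sums being 459 to 578 CPM in ShhN IUE against 279 to 316 CPM in wild type, and 527 to 582 CPM in SmoM2 against 278 to 317 CPM in wild type. Of 10 radial glia markers, 6 rose in ShhN IUE (1630 to 1940 CPM, against 1110 to 1490 CPM in wild type) and 5 in SmoM2 (1900 to 2150 CPM, against 1190 to 1550 CPM in wild type). Of 10 neuron markers, 5 fell and 1 rose in ShhN IUE (7490 to 8670 CPM, against 7530 to 9210 CPM in wild type). In SmoM2, 2 of these fell and 1 rose (6640 to 7150 CPM, against 6590 to 7670 CPM in wild type). Of 10 markers of the striatum, the tissue beneath the cortex, 9 fell in each group, to 60.5 to 76.6 CPM in ShhN IUE against 211 to 287 CPM in wild type, and to 65.8 to 69.4 CPM in SmoM2 against 198 to 279 CPM in wild type. Beside these counts, 16.1% of all genes were called higher and 17.2% lower in ShhN IUE, and 9.59% and 9.29% in SmoM2. The part of all these cells in the results was not tested. Meningeal markers varied from library to library, with 19.1, 29.4 and 762 CPM in ShhN IUE, 385, 188 and 287 CPM in SmoM2, and 13.4, 455 and 168 CPM in wild type.

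Of the 10 genes, 5 rose in each group against wild type and 0 fell. In ShhN IUE these were Ccnd2, Ccnd3, Cdk4, Cdk6 and Cdkn2c, and in SmoM2 Ccnd1, Ccnd2, Ccnd3, Cdk4 and Cdkn2c. Calls rest on the quasi-likelihood test of edgeR across all genes, with a Benjamini-Hochberg adjusted p under 0.05, over 16180 genes for ShhN IUE and 16485 for SmoM2. Of all genes tested, 16.1% were called higher and 17.2% lower in ShhN IUE, and 9.59% were called higher and 9.29% lower in SmoM2. The median log2 fold change over the 10 genes was 0.53 in ShhN IUE and 0.65 in SmoM2, against medians over all genes of -0.0038 and -0.0072. None of the 10 was lower at an unadjusted p under 0.05 by edgeR, or at an adjusted p under 0.05 by DESeq2 or limma-voom, in either comparison. The same 5 genes in each comparison had groups that did not overlap, all with the treated libraries higher, while of all genes 24.5% were higher and 24.9% lower with no overlap in ShhN IUE, and 20.4% higher and 19.7% lower in SmoM2. Without ShhN IUE replicate 3 the same number, 5, were called higher. In bulk tissue, more cells of a type and more RNA per cell cannot be told apart, and this touches every value below. The labels do not say that replicates are separate animals, so the p-values measure the spread between these libraries.

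**Figure D1:**
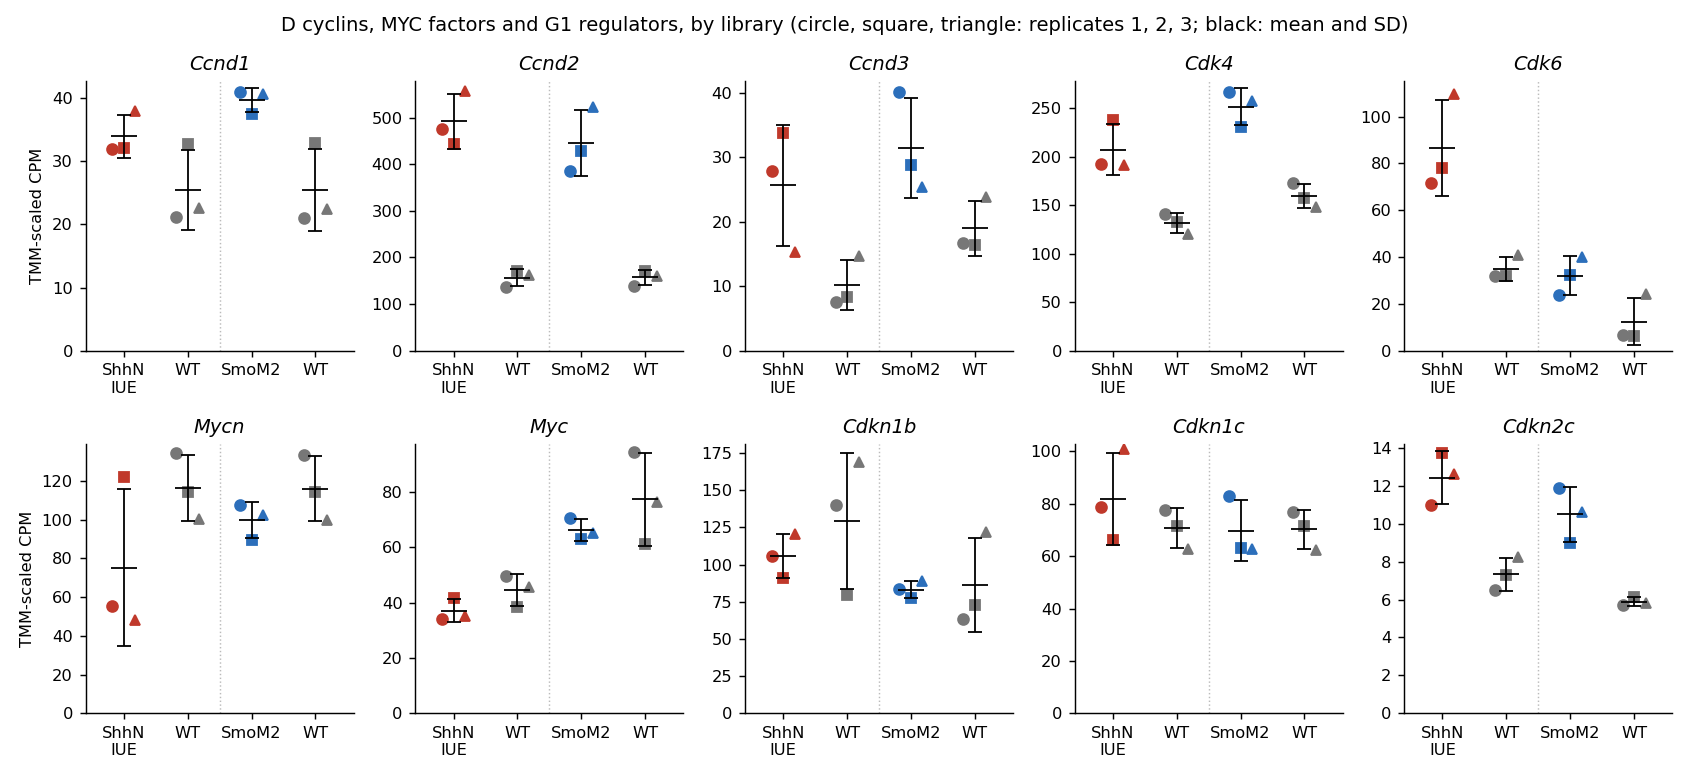
TMM-scaled CPM (y axis, from 0) of the 10 genes in each library, with ShhN IUE (red) and its wild type on the left of each panel and SmoM2 (blue) and its wild type on the right (grey). Black bars are mean and SD of 3 libraries. Ccnd2 lies between 443.6 and 557.3 in ShhN IUE and between 384.5 and 522.2 in SmoM2, above every wild-type value, and wild-type Cdk6, Ccnd3, Myc and Cdkn1b sit at different heights in the 2 tables.

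The wild-type libraries were the same in both tables but were not counted alike for every gene, and this decides which of the 10 genes can be set side by side. Summed wild-type counts in the ShhN IUE table and in the SmoM2 table were 1540 and 1540 for Ccnd1, 9353 and 9412 for Ccnd2, 6925 and 6924 for Mycn, and 4219 and 4198 for Cdkn1c. For the other 6 genes the sums lay more than 0.1 apart as log2 values. Cdk6 differed most, with 618, 707 and 743 counts in the ShhN IUE table and 131, 140 and 443 in the SmoM2 table for the same 3 libraries. Ccnd3 had 597 counts in the first table and 1118 in the second, Myc 2632 and 4567, Cdk4 7845 and 9525, Cdkn1b 7526 and 5061, and Cdkn2c 435 and 352. Over all genes in both tables, 72.7% of 22268 agreed within that tolerance. Each group was therefore tested against the wild type of its own table, and SmoM2 was tested against ShhN IUE only for Ccnd1, Ccnd2, Mycn and Cdkn1c.

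**Figure D2:**
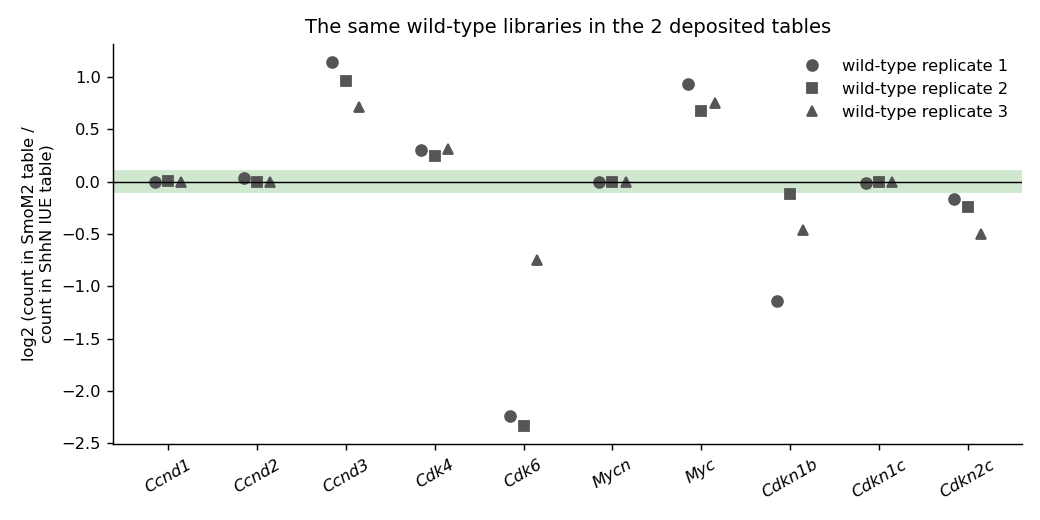
Log2 ratio of each wild-type library's count in the SmoM2 table over its count in the ShhN IUE table (y axis), for the 10 genes (x axis), with 1 symbol per library. The green band marks the tolerance of 0.1. Points of Ccnd1, Ccnd2, Mycn and Cdkn1c lie in the band, and those of Cdk6 spread widest, with counts of 131, 140 and 443 in place of 618, 707 and 743.

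Ccnd2 (chr6:127125162-127152193, GRCm38) rose most in both groups on the fold scale among the genes called. It had 475, 443.6 and 557.3 CPM in ShhN IUE, against 136.7, 171.3 and 161.9 CPM in wild type. The lowest ShhN IUE library lay far above the highest wild-type library. Means were 491.9 ± 58.7 CPM in ShhN IUE and 156.6 ± 17.9 CPM in wild type (SD, n = 3 each), a log2 fold change of 1.65 ± 0.13 (SE) and a 3.14-fold rise (edgeR adjusted p = 0.000518). In SmoM2 it had 384.5, 428.8 and 522.2 CPM, against 139.3, 171.4 and 161.2 CPM in wild type. All 3 SmoM2 libraries again lay above all wild-type ones, with means of 445.2 ± 70.3 CPM in SmoM2 and 157.3 ± 16.4 CPM in wild type (SD, n = 3 each). The log2 fold change was 1.50 ± 0.13, a 2.83-fold rise (edgeR adjusted p = 0.000425). SmoM2 and ShhN IUE did not differ beyond their spread for Ccnd2, with a log2 fold change of -0.15 ± 0.13 (SmoM2 over ShhN IUE, edgeR adjusted p = 0.440). The 95% interval of that difference ran from -0.44 to 0.13, so SmoM2 could lie between 0.737 and 1.095 times ShhN IUE. Ccnd2 was called higher under each of 14 alternative settings in both comparisons with wild type.

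Ccnd1 (chr7:144929931-144939869) encodes the D cyclin best known as a target of mitogens. Its values were 32.0, 32.1 and 37.9 CPM in ShhN IUE, against 21.2, 32.8 and 22.6 CPM in wild type. Wild-type replicate 2 lay above 2 of the ShhN IUE libraries, so the groups overlapped, and the log2 fold change of 0.41 ± 0.18 did not pass (edgeR adjusted p = 0.114, 95% interval from -0.0047 to 0.83). In SmoM2 it had 40.9, 37.5 and 40.7 CPM, against 21.0, 32.9 and 22.5 CPM in wild type. Here the groups did not overlap, and Ccnd1 rose 1.56-fold, with a log2 fold change of 0.64 ± 0.17 (edgeR adjusted p = 0.0315). That call was lost when any 1 of the 3 SmoM2 libraries or wild-type replicate 1 or 3 was left out, with adjusted p of 0.0666 to 0.103 by edgeR, against 0.00385 to 0.103 over all 14 alternatives. Ccnd1 was called in ShhN IUE as well in 2 of 14 alternatives, in the fit of all 9 libraries (log2 0.44, edgeR adjusted p = 0.0451) and without wild-type replicate 2, with a log2 fold change of 0.64 and an edgeR adjusted p of 0.0246 (0.0246 to 0.274 over the 14). The direct test gave SmoM2 over ShhN IUE as 0.21 ± 0.15 on the log2 scale (edgeR adjusted p = 0.370, 95% interval from -0.13 to 0.56). The highest ShhN IUE and wild-type libraries for Ccnd1, replicates 3 and 2, were also the highest for vessel and meningeal markers. They were highest too for radial glia, oligodendrocyte precursor and microglia markers, so this order is not particular to vessels or meninges. The 8 endothelial and mural markers summed to 323, 267 and 499 CPM in ShhN IUE, against 217, 380 and 236 CPM in wild type. Of the 8, 2 passed the test, both higher in ShhN IUE (25%, beside 16.1% of all genes). In SmoM2 they summed to 332, 294 and 292 CPM, against 218, 384 and 237 CPM in wild type, and 0 of the 8 passed. The part of these cells in Ccnd1 was not tested. The neighbour Oraov1, which overlaps Ccnd1 by 818 bases, rose in ShhN IUE (log2 0.61, edgeR adjusted p = 0.0153) and had 0.05 in SmoM2 (edgeR adjusted p = 0.831). The use of strand in counting was not given in the sources used here.

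Ccnd3 (chr17:47505051-47599691) is the D cyclin best known from lymphocytes. It had 27.8, 33.8 and 15.3 CPM in ShhN IUE, against 7.62, 8.36 and 14.6 CPM in wild type. ShhN IUE replicate 3 lay just above the highest wild-type library. The rise was 2.52-fold, with a log2 fold change of 1.33 ± 0.34 (edgeR adjusted p = 0.0194). In SmoM2 the values were 40.1, 28.9 and 25.3 CPM, against 16.7, 16.3 and 23.8 CPM in wild type, and the groups were again only just apart. The rise was 1.66-fold, with a log2 fold change of 0.73 ± 0.21 (edgeR adjusted p = 0.0433). Both calls were fragile. The ShhN IUE call was kept in 8 of 13 alternatives and was lost without replicate 1 or 2 of either group (adjusted p = 0.0590 to 0.0641 by edgeR, 0.000348 to 0.0641 over the alternatives). The SmoM2 call was kept in 7 of 13 and was lost without any 1 SmoM2 library and without wild-type replicate 1 or 2 (adjusted p = 0.0515 to 0.136 by edgeR, 0.00647 to 0.136 over the alternatives). Bysl overlaps Ccnd3 by 361 bases and had its lowest count in the same ShhN IUE library, with 677, 805 and 333 counts in ShhN IUE, against 859, 1114 and 964 in wild type.

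Per length, Ccnd2 took a larger share of the D cyclin RNA in both groups than in wild type. Its share of summed Ccnd1, Ccnd2 and Ccnd3 FPKM was 80.5%, 78.8% and 81.9% in ShhN IUE, against 66.8%, 62.6% and 67.7% in wild type. In SmoM2 it was 71.9%, 76.5% and 79.0%, against 65.2%, 61.2% and 65.7% in wild type. Neither pair of groups overlapped. The difference was 14.7 percentage points for ShhN IUE and 11.8 for SmoM2, each with a two-sided exact permutation p of 0.1, the smallest that 3 libraries against 3 can give. With counts in place of FPKM, which also weigh length, the differences were smaller, at 7.53 and 7.96 percentage points. On FPKM, Ccnd2 averaged 40.5 ± 5.69 in ShhN IUE, 36.3 ± 5.81 in SmoM2 and 12.5 ± 1.74 in the wild type of the ShhN IUE table (SD, n = 3 each). Ccnd1 followed with 8.2 ± 1.0 in ShhN IUE, 9.51 ± 0.521 in SmoM2 and 5.99 ± 1.66 in wild type. Ccnd3 was the lowest D cyclin in every library, at 0.979 to 2.08 FPKM in ShhN IUE, 1.57 to 2.49 FPKM in SmoM2 and 0.45 to 1.44 FPKM in wild type over both tables.

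**Figure D3:**
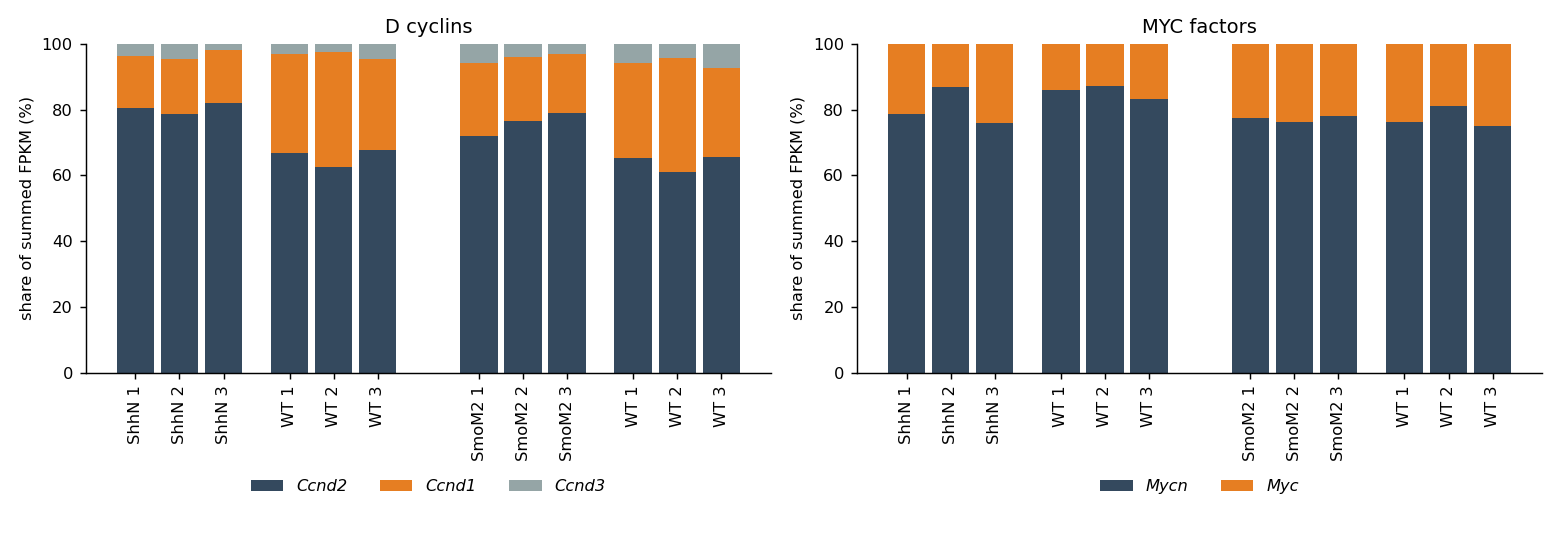
Share of summed FPKM (y axis, percent) taken by each D cyclin (left) and by Mycn and Myc (right) in every library, with each group left of the wild type of its table. The dark bars of Ccnd2 stand at 78.8% to 81.9% in ShhN IUE and 71.9% to 79.0% in SmoM2, above the wild-type bars at 61.2% to 67.7%, while the bars of Mycn overlap between groups.

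Of the kinases, Cdk4 rose 1.58-fold in both comparisons, and Cdk6 rose in ShhN IUE. The bases before their transcription starts are shown with sites for MYC (the E-box CACGTG) and E2F factors (TTTNNCGC, with N any base) in capitals, because both factor families stand on either side of these kinases in the pathway. The windows are the 250 bases before the RefSeq start (GRCm38.p6), less any exon of the same gene, 5′ to 3′ on the strand of the gene. The Cdk4 window lies on the plus strand at chr10:127063285-127063533, just before the counted locus. The Cdk6 window lies on the plus strand at chr5:3343643-3343731. It falls inside the counted locus (chr5:3341485-3531008), so it is upstream of a RefSeq start but not of that locus.
Cdk4: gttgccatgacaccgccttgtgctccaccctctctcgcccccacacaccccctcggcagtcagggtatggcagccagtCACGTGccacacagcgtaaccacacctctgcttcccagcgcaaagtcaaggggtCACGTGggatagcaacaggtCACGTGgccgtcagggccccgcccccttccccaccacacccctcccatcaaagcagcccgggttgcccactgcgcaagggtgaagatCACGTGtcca
Cdk6: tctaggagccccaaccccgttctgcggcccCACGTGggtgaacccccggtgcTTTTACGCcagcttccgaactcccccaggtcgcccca
The Cdk4 window held 4 E-boxes and the Cdk6 window 1 E-box and 1 E2F match. On both strands, CACGTG occurred in 6.02% and TTTNNCGC in 4.28% of 32851 windows of all genes, each of the full 250 bases with no exon removed. Matches in these genes were searched over the same 250 bases, of which 89 are shown for Cdk6. The GLI letters GACCACCCA, found in 0.225% of windows, were in none of the windows of these genes. A match is a description of letters and not evidence of binding. RefSeq promoters were matched for 6 of the 10 genes (Ccnd3, Cdk4, Cdk6, Mycn, Cdkn1b and Cdkn2c), and no base of the Cdkn2c windows lay outside its exons.

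Cdk4 (chr10:127063534-127067920) encodes the more abundant of the kinases per length, at 32.9 ± 3.8 FPKM in ShhN IUE and 20.3 ± 1.6 FPKM in wild type (SD, n = 3 each), against 5.14 ± 1.33 and 2.01 ± 0.283 FPKM for Cdk6 in the same groups. It had 193, 238 and 191 CPM in ShhN IUE, against 141, 133 and 120 CPM in wild type. All ShhN IUE libraries exceeded all wild-type ones, a 1.58-fold rise with a log2 fold change of 0.66 ± 0.12 (edgeR adjusted p = 0.00512). SmoM2 libraries had 267, 231 and 258 CPM, against 173, 158 and 148 CPM in wild type. The groups were again apart, with a 1.58-fold rise and a log2 fold change of 0.66 ± 0.09 (edgeR adjusted p = 0.00291). Cdk4 was called in each of 13 alternatives in both comparisons. Tspan31, which overlaps Cdk4 by 604 bases, also rose, with log2 fold changes of 0.56 in ShhN IUE (edgeR adjusted p = 0.00618) and 0.38 in SmoM2 (edgeR adjusted p = 0.0258).

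Cdk6 (chr5:3341485-3531008) encodes the other D cyclin kinase. It had 71.5, 77.9 and 110 CPM in ShhN IUE, against 32.1, 32.1 and 40.8 CPM in wild type. The groups were well apart, and Cdk6 rose 2.47-fold, with a log2 fold change of 1.30 ± 0.19 (edgeR adjusted p = 0.00227), called in each of 13 alternatives. SmoM2 libraries had 23.9, 32.2 and 40.2 CPM, against 6.77, 6.37 and 24.2 CPM in wild type. Wild-type replicate 3 lay above the lowest SmoM2 library. The log2 fold change of 1.37 ± 0.48 did not pass (edgeR adjusted p = 0.0827, 95% interval from 0.27 to 2.48). Without wild-type replicate 3 it was 2.30 and passed (edgeR adjusted p = 0.00279, against 0.00279 to 0.226 over 13 alternatives), and limma-voom called it with all libraries (1.66, adjusted p = 0.0303). In the authors' deposited table its q-value in SmoM2 was 0.0105. The wild-type counts behind both comparisons are those that disagreed most between the tables, so the 2 fold changes rest on different values of the same wild-type libraries.

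**Figure D4:**
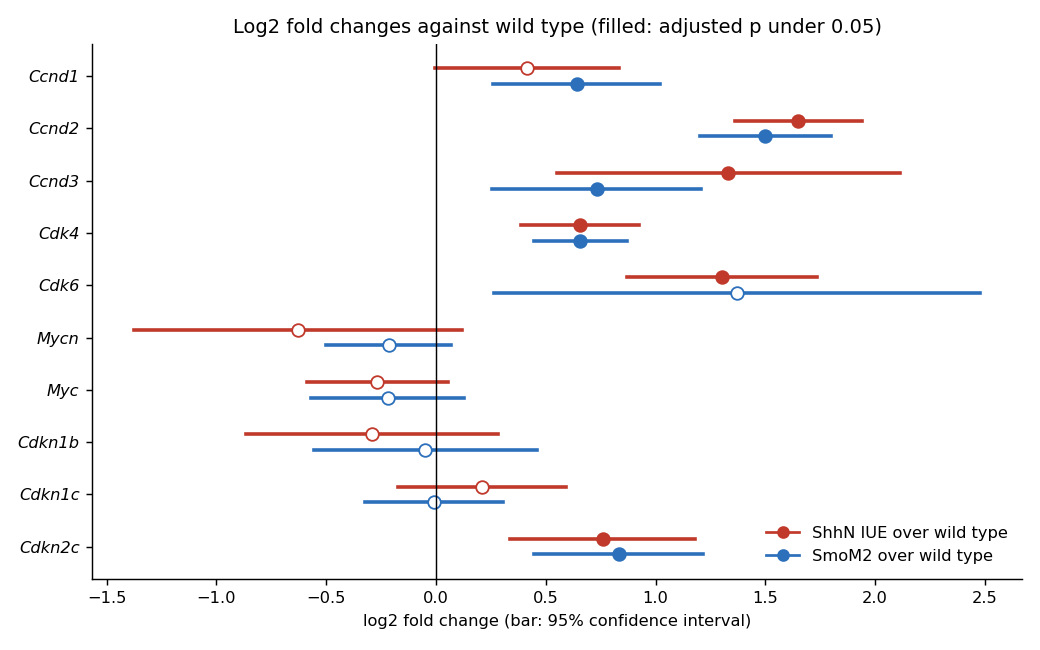
Log2 fold change against wild type (x axis, bars 95% confidence intervals) for each gene (y axis), ShhN IUE above SmoM2, filled where the edgeR adjusted p was under 0.05. Ccnd2 stands farthest right of the called genes at 1.65 and 1.50, Cdk4 lies at 0.66 in both, and Mycn, Myc and Cdkn1b lie left of 0 without passing.

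Mycn (chr12:12936096-12941914) encodes N-MYC, the MYC factor of neural progenitors. It did not pass in either group and its values lay below wild type on average. The bases before its start are shown because the letters of E2F sites occur there 3 times, the first pair of matches overlapping on opposite strands. They lie on the minus strand at chr12:12941915-12942086 (RefSeq, GRCm38.p6).
Mycn: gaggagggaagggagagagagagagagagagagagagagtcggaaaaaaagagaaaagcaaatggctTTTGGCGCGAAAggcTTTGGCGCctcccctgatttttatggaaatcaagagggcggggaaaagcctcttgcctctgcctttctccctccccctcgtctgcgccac
Mycn had 55.2, 122 and 48.4 CPM in ShhN IUE, against 134, 114 and 100 CPM in wild type. ShhN IUE replicate 2 thus lay inside the wild-type range and the other two well below it. The log2 fold change was -0.63 ± 0.32 (edgeR adjusted p = 0.169, 95% interval from -1.37 to 0.12). Without ShhN IUE replicate 2 it was -1.15 ± 0.16 and passed (edgeR adjusted p = 0.00503), against a range of 0.00503 to 0.394 over 14 alternatives. The SmoM2 libraries held 107, 89.4 and 103 CPM, against 134, 114 and 99.9 CPM in wild type. These overlapped, with a log2 fold change of -0.22 ± 0.12 (edgeR adjusted p = 0.261, 95% interval from -0.50 to 0.07). SmoM2 over ShhN IUE was 0.40 ± 0.29 (edgeR adjusted p = 0.367), and 0.94 without ShhN IUE replicate 2 (edgeR adjusted p = 0.00431, against 0.00431 to 0.716 over 16 alternatives). These calls thus turned on that library, whose Gli1 and Shh, given above, were close to those of replicate 1.

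Myc (chr15:61985341-61990374) encodes the founding MYC factor. It had 34.2, 41.8 and 35.1 CPM in ShhN IUE, against 49.7, 38.3 and 45.7 CPM in wild type, and 70.6, 63.0 and 65.3 CPM in SmoM2, against 94.3, 61.1 and 76.5 CPM in the wild type of that table. Both pairs of groups overlapped. Neither log2 fold change passed, at -0.27 ± 0.14 in ShhN IUE (edgeR adjusted p = 0.175) and -0.22 ± 0.15 in SmoM2 (edgeR adjusted p = 0.346). Mycn was the more abundant per length, at 78.6%, 86.9% and 75.9% of summed Mycn and Myc FPKM in ShhN IUE, against 86.0%, 87.2% and 83.3% in wild type. In SmoM2 its share was 77.6%, 76.4% and 78.1%, against 76.3%, 81.0% and 74.9% in wild type. The difference was -5.03 percentage points for ShhN IUE (two-sided exact permutation p = 0.3) and -0.0186 for SmoM2 (two-sided exact permutation p = 1.0). The ShhN IUE difference was -8.26 points without ShhN IUE replicate 2 and -2.73 without ShhN IUE replicate 3, and the SmoM2 difference ran from -1.29 to 1.79 with 1 library left out. The level of the wild-type share differs between the tables because Myc was counted differently in them.

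Cdkn2c (chr4:109660876-109667189) encodes p18-INK4C, which binds CDK4 and CDK6, and it was the inhibitor that rose. It had 11.0, 13.7 and 12.6 CPM in ShhN IUE, against 6.48, 7.27 and 8.24 CPM in wild type. The groups were apart, a 1.69-fold rise with a log2 fold change of 0.76 ± 0.18 (edgeR adjusted p = 0.0158) that was called in each of 13 alternatives. In SmoM2 the values were 11.9, 8.98 and 10.6 CPM, against 5.73, 6.14 and 5.80 CPM in wild type. The wild-type values lay within a narrow range below all SmoM2 values. The rise was 1.78-fold, with a log2 fold change of 0.83 ± 0.17 (edgeR adjusted p = 0.0121). That call was lost without SmoM2 replicate 1 or 3 (edgeR adjusted p = 0.0528 and 0.0583, against 0.000629 to 0.0583 over 13 alternatives). These are low counts, 201 to 231 per library in ShhN IUE, 212 to 323 in SmoM2 and 106 to 160 in wild type.

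The CIP/KIP inhibitors did not pass in either group. Cdkn1b (chr6:134920401-134925513), which encodes p27-KIP1, had 106, 91.0 and 120 CPM in ShhN IUE, against 140, 79.4 and 169 CPM in wild type. The wild-type libraries alone spanned the range of the ShhN IUE ones, and the log2 fold change was -0.29 ± 0.25 (edgeR adjusted p = 0.398). Without wild-type replicate 2 it was -0.55 and passed as lower (edgeR adjusted p = 0.0386, against 0.0386 to 0.885 over 13 alternatives). In SmoM2 Cdkn1b had 83.5, 77.5 and 88.7 CPM, against 63.2, 73.1 and 122 CPM in wild type, a log2 fold change of -0.05 ± 0.22 (edgeR adjusted p = 0.902). Cdkn1c (chr7:143458350-143461050) encodes p57-KIP2 and is expressed from the maternal allele. It had 78.8, 66.1 and 101 CPM in ShhN IUE, against 77.7, 71.7 and 62.7 CPM in wild type, and 83.1, 63.3 and 62.9 CPM in SmoM2, against 76.9, 71.3 and 62.4 CPM in wild type. Its groups overlapped in both, with log2 fold changes of 0.21 ± 0.17 in ShhN IUE (edgeR adjusted p = 0.359) and -0.01 ± 0.14 in SmoM2 (edgeR adjusted p = 0.971). The 95% interval in SmoM2 ran from 0.799 to 1.235 times wild type. SmoM2 over ShhN IUE was -0.24 ± 0.16 on the log2 scale (edgeR adjusted p = 0.336, 95% interval from -0.60 to 0.12). In the direct test 0 of the 4 genes passed, 0 had an unadjusted p under 0.05 and 0 passed in DESeq2 or limma-voom, while of 12349 genes 8.45% were called higher and 8.07% lower by edgeR.

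Per length, the order of the 10 genes began in ShhN IUE with Ccnd2 at 40.5 ± 5.69, Cdk4 at 32.9 ± 3.8 and Cdkn1c at 29.6 ± 6.98 FPKM, followed by Mycn at 17.4 ± 9.2 and Cdkn1b at 14.2 ± 2.23 FPKM (SD, n = 3). In the wild type of that table it began with Mycn at 26.2 ± 3.53, Cdkn1c at 24.7 ± 2.55 and Cdk4 at 20.3 ± 1.6 FPKM, followed by Cdkn1b at 16.7 ± 5.66 and Ccnd2 at 12.5 ± 1.74 FPKM. Mycn and Cdkn1c there differed by less than their spread, as did Cdkn1b and its neighbours. In SmoM2 Cdk4 at 39.7 ± 3.26 and Ccnd2 at 36.3 ± 5.81 FPKM came first and lay within their spread of each other, ahead of Cdkn1c at 25.0 ± 4.23 and Mycn at 23.1 ± 2.3 FPKM (SD, n = 3). In the wild type of the SmoM2 table, Mycn at 26.3 ± 3.57, Cdk4 at 24.7 ± 1.73 and Cdkn1c at 24.6 ± 2.51 FPKM lay within their spread of one another, ahead of Ccnd2 at 12.6 ± 1.61 and Cdkn1b at 11.2 ± 4.07 FPKM. Ccnd2 thus came first or next to it in both treated groups, and below Mycn, Cdkn1c and Cdk4 in the wild type of both tables.

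The rise of Ccnd2 was set beside that of dividing cells, a ratio chosen after the values were seen and given as a description. The 10 markers of dividing cells summed to 57.8, 60.3 and 72.4 FPKM in ShhN IUE and 49.5, 54.8 and 67.6 FPKM in SmoM2, against 16.5, 20.4 and 23.3 FPKM in the wild type of the ShhN IUE table. Ccnd2 FPKM per FPKM of these markers was 0.668, 0.596 and 0.648 in ShhN IUE, against 0.644, 0.689 and 0.55 in wild type, and averaged 0.634 ± 0.00228 in SmoM2 and 0.634 ± 0.069 in wild type (SD, n = 3 each). Relative to these markers Ccnd2 thus lay inside the wild-type range in all 6 libraries. Mycn per marker FPKM was 0.22, 0.465 and 0.159 in ShhN IUE, against 1.79, 1.3 and 0.967 in wild type, and 0.504, 0.374 and 0.352 in SmoM2, against 1.8, 1.29 and 0.976 in wild type. Every treated library was below every wild-type one, as also held in both tables for Ccnd1, Cdk4, Myc, Cdkn1b, Cdkn1c and Cdkn2c, so this was not particular to Mycn. Ccnd3 per marker FPKM overlapped wild type in both tables. Cdk6 lay below wild type in ShhN IUE. In SmoM2 Cdk6 had 0.0285, 0.0343 and 0.0351, against 0.0232, 0.0184 and 0.0603 in wild type. Lying inside the wild-type range was thus not particular to Ccnd2 in SmoM2. Cdk4 per marker FPKM averaged 0.524 ± 0.094 in ShhN IUE and 1.04 ± 0.248 in wild type, and 0.706 ± 0.133 in SmoM2 and 1.27 ± 0.303 in wild type (SD, n = 3 each), so it rose less than the markers did. The part of a larger share of dividing cells in any of these changes was not tested.

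The genes most like 3 of the 10 in pattern were found by the root mean square difference in log2 CPM over the 9 libraries. The search covered 9050 genes with agreeing wild-type counts and at least 5 CPM on average. Predicted, clone-derived, pseudogene and mitochondrial names were left out of the ranking. For Ccnd2 they were the mitotic genes Bub1 (0.0977), Foxm1 (0.117) and Espl1 (0.126). In that fit, whose CPM are relative to the agreeing genes, Bub1 had 21, 19.8 and 25.2 CPM in ShhN IUE and 16, 17.7 and 19.8 CPM in SmoM2, against 5.28, 7.93 and 7.12 CPM in wild type. For Mycn they were Atp6v0a2 (0.168), Frat1 (0.171) and Cox10 (0.172), a looser likeness. Atp6v0a2, a proton pump subunit, had 49.5, 93.9 and 50 CPM in ShhN IUE and 83.4, 76.6 and 82.2 CPM in SmoM2, against 89.3, 97.3 and 92.7 CPM in wild type, with ShhN IUE replicate 2 high as for Mycn. For Cdkn1c they were Snx21 (0.0839), Rest (0.0998) and Ccdc23 (0.102).

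Downstream of the D cyclins, the genes of DNA replication that E2F factors turn on rose widely. Of 17 such genes, 14 rose in ShhN IUE and 10 in SmoM2, with median log2 fold changes of 0.90 and 0.61. These are 82.4% and 58.8% of the list, beside 16.1% and 9.59% of all genes called higher. Uhrf1, which maintains DNA methylation at replication, averaged 43.9 ± 4.04 CPM in ShhN IUE and 12.3 ± 0.699 CPM in wild type (SD, n = 3 each; log2 1.84 ± 0.13, edgeR adjusted p = 0.000401). In SmoM2 it averaged 28.6 ± 4.80 CPM, against 12.3 ± 0.630 CPM in wild type (SD, n = 3 each; log2 1.21 ± 0.14, edgeR adjusted p = 0.00145), and it was lower in SmoM2 than in ShhN IUE (log2 -0.63 ± 0.13, edgeR adjusted p = 0.00983, and up to 0.0517 with 1 library left out). The replication helicase genes Mcm3 and Mcm5 rose by 1.23 and 1.17 in ShhN IUE and by 1.02 and 1.06 in SmoM2 on the log2 scale. Tyms, which makes thymidylate, rose by 1.40 in ShhN IUE and 1.30 in SmoM2.

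Among 13 RB and E2F genes, 4 rose and 2 fell in ShhN IUE and 5 rose in SmoM2. In ShhN IUE these are 30.8% higher and 15.4% lower, the latter near the 17.2% of all genes, where 16.1% were higher. In SmoM2 they are 38.5% higher, beside 9.59% of all genes. E2f8, a repressive E2F that is itself induced in S phase, rose by 1.08 ± 0.27 in ShhN IUE (edgeR adjusted p = 0.0173) and by 0.88 ± 0.21 in SmoM2 (edgeR adjusted p = 0.0230) on the log2 scale. The activator E2f1 rose in SmoM2 (0.79 ± 0.16, edgeR adjusted p = 0.0108) and had 0.51 ± 0.18 in ShhN IUE, which did not pass (edgeR adjusted p = 0.0542). Other activators moved in opposite directions in ShhN IUE. E2f2 rose there (1.52 ± 0.28, edgeR adjusted p = 0.00580) and E2f3 fell (-0.53 ± 0.14, edgeR adjusted p = 0.0207). The E2f3 call was lost in 5 of 14 alternatives. E2f5, a partner of the RB relatives, fell in ShhN IUE (-0.56 ± 0.15, edgeR adjusted p = 0.0244) and was higher in SmoM2 than in ShhN IUE (0.58 ± 0.13, edgeR adjusted p = 0.0125, and up to 0.0528 with 1 library left out). Several of these calls were lost when 1 library was left out, up to adjusted p = 0.0516 for E2f8 and 0.0794 for E2f5 in ShhN IUE and 0.0995 for E2f8 and 0.0600 for E2f1 in SmoM2 by edgeR. Of 10 genes of cyclins E and A with their kinases, 4 rose and 2 fell in ShhN IUE and 3 rose in SmoM2. In ShhN IUE these are 40% higher and 20% lower, the latter near the 17.2% of all genes. In SmoM2 they are 30% higher, beside 9.59% of all genes. Cdk2 rose by 1.27 ± 0.22 in ShhN IUE and 1.02 ± 0.20 in SmoM2, and its S-phase partner Ccna2 by 0.93 ± 0.16 and 1.06 ± 0.13 (edgeR adjusted p from 0.00160 to 0.0101). Ccne2, the cyclin of the G1/S boundary, went the other way in ShhN IUE, with 6.16 ± 0.535 CPM in ShhN IUE and 12.2 ± 1.62 CPM in wild type (SD, n = 3 each; log2 -0.99 ± 0.19, edgeR adjusted p = 0.00623). It did not pass in SmoM2 (-0.17 ± 0.20, edgeR adjusted p = 0.583), and SmoM2 exceeded ShhN IUE by 0.79 ± 0.19 (edgeR adjusted p = 0.0199, and up to 0.0891 with 1 library left out). The other inhibitors Cdkn1a, Cdkn2b and Cdkn2d had log2 fold changes of 0.13, 0.96 and 0.24 in ShhN IUE (lowest edgeR adjusted p = 0.0701) and -0.29, 0.27 and 0.17 in SmoM2 (lowest edgeR adjusted p = 0.264). Cdkn2a was too low to be tested.

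**Figure D5:**
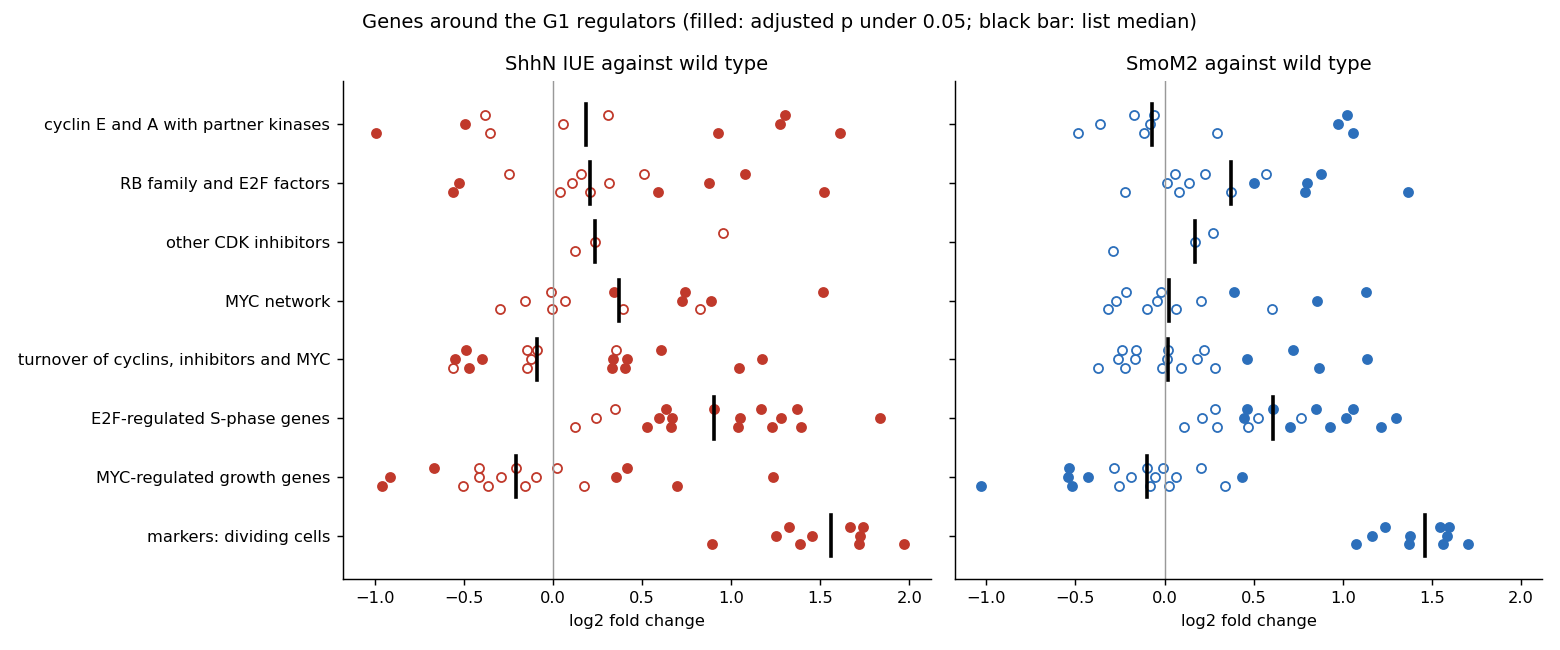
Log2 fold change against wild type (x axis) of each tested gene of 8 lists (y axis) in ShhN IUE (left) and SmoM2 (right), filled where the edgeR adjusted p was under 0.05, with a black bar at the list median. The E2F-regulated genes lie mostly right of 0, with medians of 0.90 and 0.61. The MYC-regulated growth genes lie on both sides, with medians of -0.21 and -0.10. In SmoM2, 1 of them was called higher and 5 lower.

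The MYC network list holds the MYC factor Mycl and the partners and antagonists of MYC factors. Of its 12 genes, 5 rose in ShhN IUE and 3 in SmoM2. These are 41.7% and 25% of the list, beside 16.1% and 9.59% of all genes called higher. Mycl rose by 0.39 ± 0.10 in SmoM2 (edgeR adjusted p = 0.0329), a call lost in 3 of 13 alternatives. In ShhN IUE it had -0.30 ± 0.15, which did not pass (edgeR adjusted p = 0.158). Mxd3, a MAX partner of dividing cells that represses, averaged 12.4 ± 2.57 CPM in ShhN IUE and 4.33 ± 0.739 CPM in wild type (SD, n = 3 each; log2 1.52 ± 0.23, edgeR adjusted p = 0.00277), and rose by 1.13 ± 0.20 in SmoM2 (edgeR adjusted p = 0.00674). Mxi1, another antagonist of MYC, rose by 0.89 ± 0.21 in ShhN IUE (edgeR adjusted p = 0.0141) and 0.86 ± 0.12 in SmoM2 (edgeR adjusted p = 0.00259). Max, the obligate partner of both MYC factors and their antagonists, rose in ShhN IUE (0.73 ± 0.13, edgeR adjusted p = 0.00572), had -0.02 ± 0.12 in SmoM2 (edgeR adjusted p = 0.932) and was lower in SmoM2 than in ShhN IUE (-0.77 ± 0.11, edgeR adjusted p = 0.00244). Of 17 growth genes that MYC factors are known to turn on, 4 rose and 3 fell in ShhN IUE, and 1 rose and 5 fell in SmoM2. In ShhN IUE these are 23.5% higher and 17.6% lower, near the 16.1% and 17.2% of all genes, so the count says nothing particular about the list there. In SmoM2 they are 5.88% higher and 29.4% lower, beside 9.59% and 9.29% of all genes. Gnl3, a nucleolar GTPase of stem cells, fell by 0.96 ± 0.13 in ShhN IUE (edgeR adjusted p = 0.00168) and by 0.52 ± 0.13 in SmoM2 (edgeR adjusted p = 0.0263). Nop58, a ribosomal RNA processing factor, fell by 0.67 ± 0.12 in ShhN IUE (edgeR adjusted p = 0.00508) and by 0.54 ± 0.11 in SmoM2 (edgeR adjusted p = 0.0114). Fbl, the nucleolar methyltransferase that works with Nop58, went the other way in ShhN IUE (1.24 ± 0.14, edgeR adjusted p = 0.000997). It had 0.21 ± 0.12 in SmoM2 (edgeR adjusted p = 0.246), which was lower than in ShhN IUE (-1.05 ± 0.12, edgeR adjusted p = 0.000679). The SmoM2 calls of Gnl3 and Nop58 were lost with some libraries left out, up to adjusted p = 0.0934 and 0.0536 by edgeR.

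Genes that destroy or stabilise cyclins, inhibitors and MYC factors moved in both directions in ShhN IUE, where 7 of 17 rose and 4 fell, and 4 rose in SmoM2. In ShhN IUE these are 41.2% higher and 23.5% lower, beside 16.1% and 17.2% of all genes. In SmoM2 they are 23.5% higher, beside 9.59% of all genes. Fbxw7, the ubiquitin ligase subunit that targets MYC factors and cyclin E, fell by 0.55 ± 0.12 in ShhN IUE (edgeR adjusted p = 0.0116) and had -0.38 ± 0.14 in SmoM2 (edgeR adjusted p = 0.0883). Cul1, the scaffold of that ligase, fell by 0.49 ± 0.09 in ShhN IUE (edgeR adjusted p = 0.00662) and had -0.22 ± 0.08 in SmoM2 (edgeR adjusted p = 0.0831). Aurka, a mitotic kinase that protects N-MYC from destruction, rose by 1.04 ± 0.20 in ShhN IUE (edgeR adjusted p = 0.00729) and by 0.72 ± 0.21 in SmoM2 (edgeR adjusted p = 0.0453, and up to 0.171 with 1 library left out). Usp7, of the same list, fell by 0.47 ± 0.10 in ShhN IUE (edgeR adjusted p = 0.0111). It was higher in SmoM2 than in ShhN IUE (0.34 ± 0.10, edgeR adjusted p = 0.0406), a call lost in 5 of 16 alternatives. The turnover of N-MYC protein was not measured. Cks1b, the cofactor by which SKP2 recognises p27-KIP1, rose by 0.87 ± 0.14 in SmoM2 (edgeR adjusted p = 0.00539) and by 0.61 ± 0.16 in ShhN IUE (edgeR adjusted p = 0.0197).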

How the data were processed

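Counts and FPKM per gene and library, and the p-value and q-value of the authors' own comparisons, were taken from the 2 deposited tables, per the file headers. Per the submitters' processing notes the tools were HISAT2, StringTie and edgeR, without versions, and the builds mm10 and GRCm38.p4. Strand use and the cause of the differing wild-type counts were not given in the sources used here. Groups come from the sample titles.

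Deposited counts were tested in R 4.3.3 with edgeR 4.0.16 (TMM scaling, default filter by group, quasi-likelihood F test, Benjamini-Hochberg over all genes tested). CPM are TMM-scaled, SE and 95% intervals come from the fold change and its F statistic. SmoM2 and ShhN IUE were compared in a fit of all 9 libraries over 16195 genes whose summed wild-type counts, 5 added, agreed within 0.1 on the log2 scale. Shares use the authors' FPKM and exact permutation tests. Alternatives were RLE or upper quartile scaling, other filters, DESeq2 1.42.0, limma 3.58.1 (voom), the replicate block, leaving out each library, other tolerances and other sets of libraries. The functions were tested on simulated counts.

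The 10 genes and all lists were chosen with earlier results of these data known. Named pathway genes are, per list and comparison, among the 4 called genes of smallest adjusted p at 5 CPM or more on average. Most are given with their values in the other comparison with wild type. Cdkn1a, Cdkn2b, Cdkn2d, E2f2 and the overlapping neighbours were added after their values were seen. Replicates differed by more than sampling noise (chi-square over degrees of freedom, 17.7 to 36.9). Motifs were searched on both strands.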

Additional observations from a re-analysis of the deposited data

How the results depend on the processing

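Ccnd2 and Cdk4 in both comparisons, and Cdk6 and Cdkn2c in ShhN IUE, kept direction and call under every alternative run. With 1 library left out, 1567 to 2299 genes were higher and 1684 to 2325 lower in ShhN IUE against wild type, 733 to 1598 higher and 601 to 1412 lower in SmoM2 against wild type, and 483 to 1026 higher and 351 to 897 lower in SmoM2 against ShhN IUE, where all libraries gave 2602, 2778, 1581, 1531, 1043 and 997. The fewest came without ShhN IUE replicate 1, SmoM2 replicate 3 and SmoM2 replicate 2. Of the 10 genes, 4 to 5 were then higher and 0 to 1 lower in ShhN IUE (Mycn without ShhN IUE replicate 2, Cdkn1b without wild-type replicate 2), 2 to 5 higher in SmoM2 and 0 to 1 of 4 higher in SmoM2 over ShhN IUE (Mycn). The fit of all 9 libraries called 2 higher in each group, with 4 testable by construction. The share of Ccnd2 rose by 7.53 points in ShhN IUE and 7.96 in SmoM2 with counts in place of FPKM, since counts also weigh length, and by 13.1 to 15.7 and 10.1 to 13.7 with 1 library left out. The Mycn share difference in SmoM2 ran from -1.29 to 1.79 with 1 library left out, and was 0.483 without SmoM2 replicate 2 and 1.79 without wild-type replicate 2. Fold changes near 0 in SmoM2 changed sign: Cdkn1c was 0.0165 with no filter on low counts and ran from -0.145 to 0.0723 with 1 library left out, and Cdkn1b was 0.0148 with limma-voom, 0.00801 with the replicate block and ran from -0.228 to 0.300 with 1 library left out. The cause was not tested.

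Deviations of same-numbered libraries had correlations of 0.271, -0.324 and -0.0986 in ShhN IUE and -0.0972, -0.155 and 0.0509 in SmoM2. Differently numbered libraries reached 0.433 in ShhN IUE. With 3 libraries a group these values cannot show whether numbers pair libraries, and the labels do not say. With the replicate block 1904 genes were higher and 2058 lower in ShhN IUE, 1268 and 1200 in SmoM2, and 802 and 697 in SmoM2 over ShhN IUE. Of the 10 genes 4, 5 and 0 were higher with the block. Ccnd3 was lost in ShhN IUE (adjusted p = 0.0538 by edgeR) and SmoM2 (0.0747), and Cdk6 was gained in SmoM2 (1.61, adjusted p = 0.0189 by edgeR).

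With 3 libraries a group, a p that misses the threshold does not show equal levels. Cdkn2c had the lowest count of the 10 genes in every library.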

Other observations

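Genes within 5000 bases of the 10 were listed after their values were seen. The clone-named gene 1190002F15Rik, 3579 bases from Cdkn1b (chr6:134929092-134956798, GRCm38), had 87, 65 and 108 counts in ShhN IUE, against 12, 12 and 15 in wild type, a log2 fold change of 2.91 ± 0.34 (edgeR adjusted p = 0.00123). In SmoM2 it had 64, 89 and 91 counts, against 12, 12 and 15 in wild type (log2 2.27 ± 0.30, edgeR adjusted p = 0.00230). Its wild-type counts were the same in both tables, while Cdkn1b itself had no called change and did not agree between the tables. Taf8, 2764 bases from Ccnd3, rose in ShhN IUE with 696, 626 and 604 counts, against 346, 441 and 466 in wild type (log2 0.80 ± 0.15, edgeR adjusted p = 0.00616), and had 0.11 ± 0.14 in SmoM2 (edgeR adjusted p = 0.637).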
